A study of Rattus norvegicus with 6 samples.

Results

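The 7SK, SRP, Y, vault, RNase P and RNase MRP RNAs, non-coding RNAs of basic cell functions, were followed in small RNA libraries of Prader-Willi syndrome (PWS) model β-cells. The members were the 525 rows, of 32883 in the deposited table, whose gene name marks them as 7SK RNA (424 rows), RNA of the signal recognition particle, SRP (34 rows), Y RNA (28 rows), vault RNA (1 row), RNase P RNA (37 rows) or RNase MRP RNA (1 row). The rule that picked them used names and not their values, though it was set with earlier results of these data known. Reads were found for 145 of them, and 63 reached the mean of 5 normalized reads that a row needed to be tested. The other 82 rows with reads held 0.121% of the reads of these RNAs.

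The cells were rat INS-1 insulinoma cells, an insulin-secreting line, carrying a human INS transgene and a mouse Ins2-mCherry reporter. The control group held lines 5-9, 2 and 16, in which the PWS-imprinted domain was deleted on the silent maternal copy only. The PWS group held lines 3, 19-1 and 19-4, which had also lost the active paternal copy, so the maternal deletion was shared by all 6 lines. Each line was a clone grown without treatment in medium with 7.5 mM glucose, line 5-9 was the parent of the other 5, and 19-1 and 19-4 were subclones of the same edited line. One library was made per line, so p-values measure a spread in which clone, culture and library preparation cannot be told apart. The PWS group also holds fewer independent edits than lines.

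All 6 RNA types are short, stable transcripts made by RNA polymerase III, and each works inside a protein complex. 7SK RNA holds the elongation factor P-TEFb in an inactive state with HEXIM1, LARP7 and MEPCE. The SRP RNA, also called 7SL, is the scaffold of the particle that brings ribosomes making secreted proteins, insulin among them, to the endoplasmic reticulum. Y RNAs bind the Ro60 and La proteins and are a common source of small RNA fragments, and vault RNA belongs to the vault particle. RNase P RNA trims the leaders of tRNA precursors, whereas RNase MRP RNA cuts ribosomal RNA precursors.

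The libraries held between 7373691 and 16480475 recovered reads, and lines 2 and 19-4 were the shallowest. Snord116, which lies in the deleted domain, had 5557 to 8804 normalized reads in control lines and 1.78 to 3.96 in PWS lines, as the labels require. The β-cell miRNA Mir375 stood between 558022 and 833397 in every library, whereas the leukocyte miRNA Mir223 and the muscle miRNA Mir206 had at most 3.92. Mir142, also of leukocytes, had 43.1 to 75.1, and the neural Mir124 copies, a miRNA that β-cells share, had 46.1 to 265. Fragments of Ins1 mRNA were at 88.3 to 285 and those of Iapp mRNA at 11.8 to 56.3, while Ins2 had 6.30 to 30.1 in 5 libraries and 0 in line 19-4. Values are normalized reads, the reads of a row divided by the size factor of its library, and they were not corrected for transcript length, so they do not rank the RNA types by number of molecules.

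The first question was how much of the library these RNAs made up. Together they took 0.588% ± 0.0401 of all reads in control lines and 0.539% ± 0.0833 for PWS lines (SD, 3 lines per group). Over the pooled reads of the 6 libraries Y RNA supplied 73.6%, RNase MRP RNA 16.3%, SRP RNA 5.15%, vault RNA 4.28%, 7SK 0.442% and RNase P RNA 0.246%. In single libraries Y RNA ranged from 58.3% to 78.6% and RNase MRP RNA from 13.2% to 27.4%, with the lowest Y RNA and the highest RNase MRP RNA share in line 19-4. Vault RNA, at 7.36%, exceeded SRP RNA, at 6.11%, in that library. Per the labels, the library kit was adapted to small RNAs under 200 nt, and the SRP RNA gene Rn7sl1 is 299 bases long in the RefSeq annotation of GRCr8. What the size selection did to each type was not tested.

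For no RNA type did the difference between genotypes pass the test. With the rows of each type summed and tested by limma among 4298 rows, the adjusted p was 0.946 for 7SK, 0.888 for SRP RNA, 0.881 for Y RNA, 0.995 for vault RNA, 0.984 for RNase P RNA and 0.995 for RNase MRP RNA. The intervals show how large a difference these 6 libraries leave possible. For RNase MRP RNA the 95% interval of the ratio of PWS to control lines ran from 0.716 to 1.38, and for vault RNA from 0.693 to 1.46. For Y RNA it ran from 0.562 to 1.14 and for SRP RNA from 0.600 to 1.19. It was 0.608 to 1.52 for RNase P RNA and 0.609 to 1.32 for 7SK. In bulk libraries like these, fewer cells with an RNA and less of it per cell cannot be told apart.

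**Figure D1:**
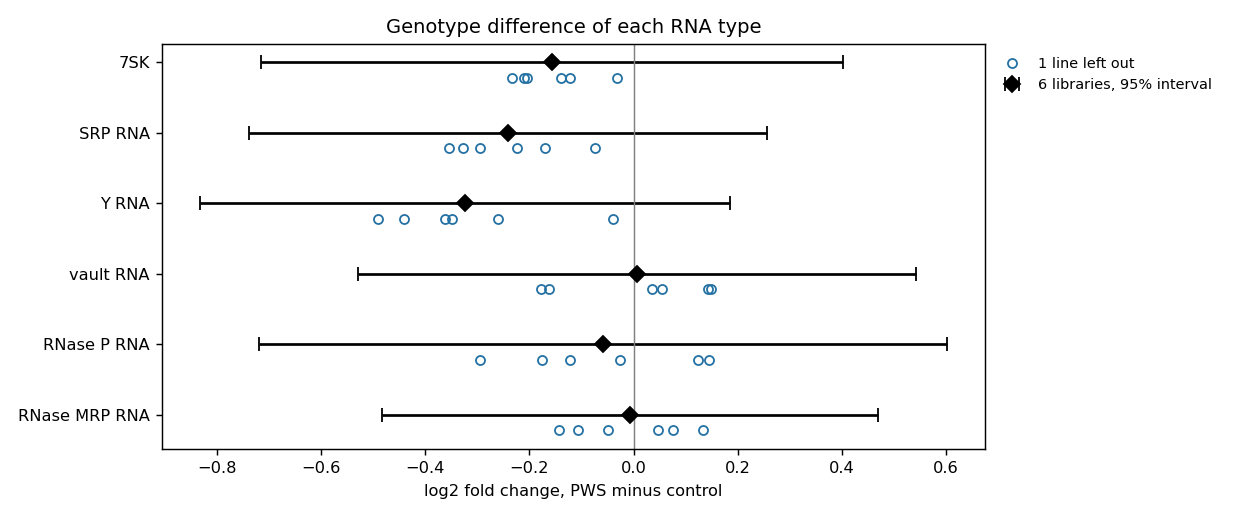
Difference of each RNA type between genotypes on the log2 scale (horizontal axis, PWS minus control). Diamonds with bars give the estimate from 6 libraries with its 95% interval, and open circles the 6 estimates with 1 line left out. Every interval includes 0, and the circle of Y RNA nearest 0, at -0.04, is the estimate without line 19-4.

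At the level of single rows, limma called 0 of the 63 tested members at an adjusted p under 0.1, against 1.28% of all 4292 rows tested, all of them lower in PWS lines. edgeR and DESeq2 each called 0 members as well, against 1.35% of all rows. The smallest limma adjusted p of a member was 0.831. At an unadjusted p under 0.05 limma listed 2 members, both Y RNA rows and both lower in PWS lines, where the share among all rows was 5.96% (3.80% lower and 2.17% higher). edgeR listed 1, against 5.22% of all rows, and DESeq2 0, against 3.22%. In 5 of the 63 rows every PWS value was under the lowest control value, as in 6.29% of all tested rows, and in 0 was every PWS value above the highest control value, against 4.87% of all rows. The median log2 fold change was -0.22 over the 63 rows and 0.0048 over all rows tested.

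**Figure D2:**
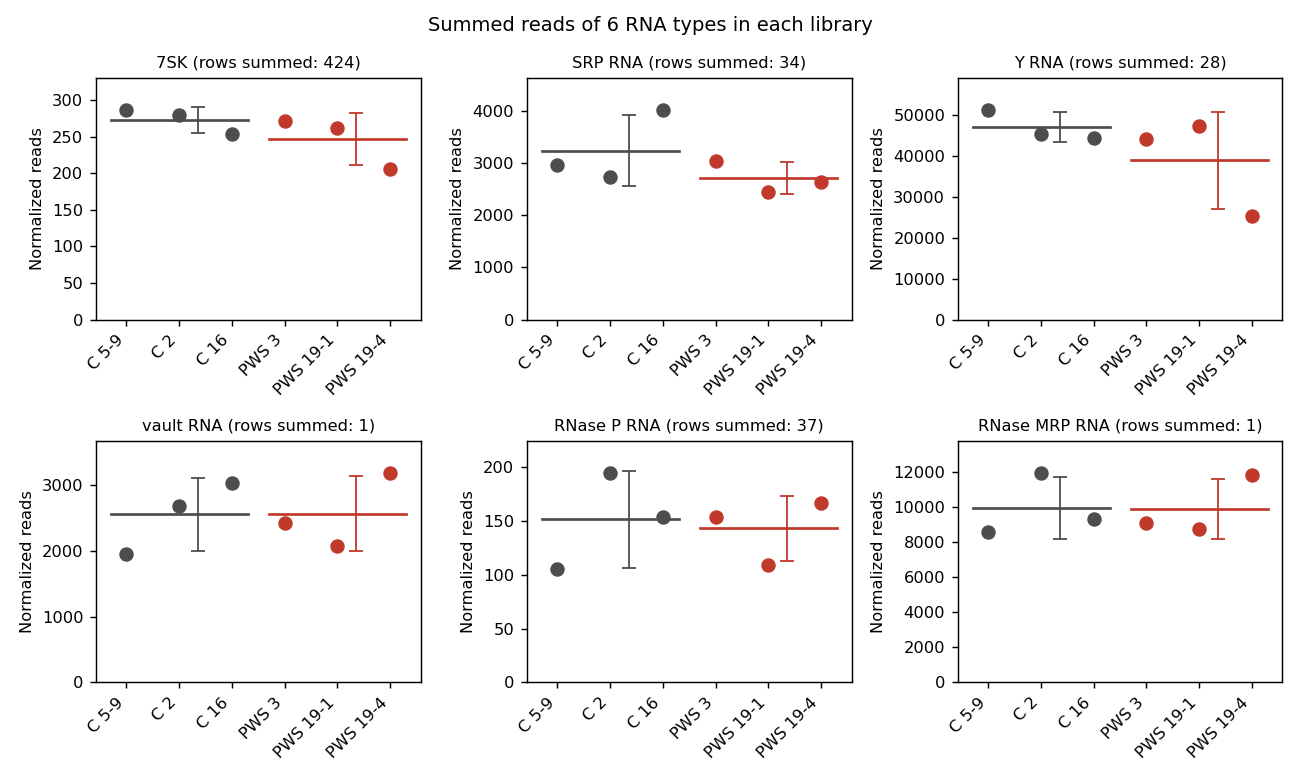
Normalized reads (vertical axis, from 0) of each RNA type in each library, with the rows of the type summed. Points are libraries, grey for control (C) and red for PWS lines, horizontal lines the group means and bars 1 SD (n = 3). Line 19-4 stands lowest for Y RNA at 25233, and lines 2 and 19-4 stand highest for RNase MRP RNA at 11981 and 11843.

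Y RNA had the most reads of the 6 types. Summed over 28 rows, its level was 51151 normalized reads in control line 5-9, 45356 in line 2 and 44411 in line 16. In PWS lines it was 44102 in line 3, 47233 in line 19-1 and 25233 in line 19-4. The other lines thus lay close together and line 19-4 stood apart, at 0.534 of the level of its sister subclone 19-1. The group means were 46973 ± 3649 and 38856 ± 11901 (SD, 3 lines per group), and the log2 fold change was -0.32 ± 0.24 (SE). Without line 19-4 it was -0.04. Of the 257 rows averaging 1000 normalized reads or more, 8.17% had a lower ratio of line 19-4 to line 19-1, and the median ratio was 0.924. As a share of all reads, Y RNA made up 0.260% of the library of line 19-4 and 0.415% to 0.454% of the other libraries. Line 19-4 was also the lowest for Mir375, for Ins1 and Ins2 fragments and for the 3 Mir124 copies, which had 46.1 to 55.4 there against 107 to 265 in the other lines. Other markers went differently. The β-cell miRNAs Mir7a1 and Mir7a2 were lowest in line 2, at 620377 and 623497 against 740374 and 749767 in line 19-4. Iapp fragments were also lowest in line 2, at 11.8 against 23.7, and Mir142 was highest in line 19-4, at 75.1. Among all rows tested, line 19-4 was the lowest in 20.6%. The part of these marker levels in the Y RNA level was not tested.

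Most Y RNA reads came from 1 row. ENSRNOG00000060430 took 81.9% to 84.9% of the Y RNA reads in every library and ranked between 38 and 51 among all rows of the table. Its level was 42811, 37761 and 36365 in control lines 5-9, 2 and 16, and 36983, 40101 and 21416 in PWS lines 3, 19-1 and 19-4. The gene name Y_RNA does not say which of the Y RNA species a row belongs to. Of the 28 rows, 20 had reads and 12 were tested.

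The low level in line 19-4 was shared by most, though not by all, of these rows. That line was the lowest of the 6 libraries in 9 of the 12 tested Y RNA rows, while it was the lowest in 20.6% of all rows tested. In the 5 most abundant rows it stood at 0.466 to 0.596 of the mean over the 6 libraries, whereas none of the other libraries went below 0.912. ENSRNOG00000058623, the sixth row, behaved otherwise. It had 151, 203 and 181 normalized reads in control lines 5-9, 2 and 16 and 121, 175 and 158 in PWS lines 3, 19-1 and 19-4, which put line 19-4 at 0.961 of the mean. A further pattern was seen in ENSRNOG00000051625, a row singled out after its values were seen. Here line 19-4 at 25.05 and control line 2 at 39.2 were the lowest, and the other 4 lines lay between 70.4 and 122. Lines 2 and 19-4 were the 2 shallowest libraries, and the part of depth in these values was not tested.

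**Figure D3:**
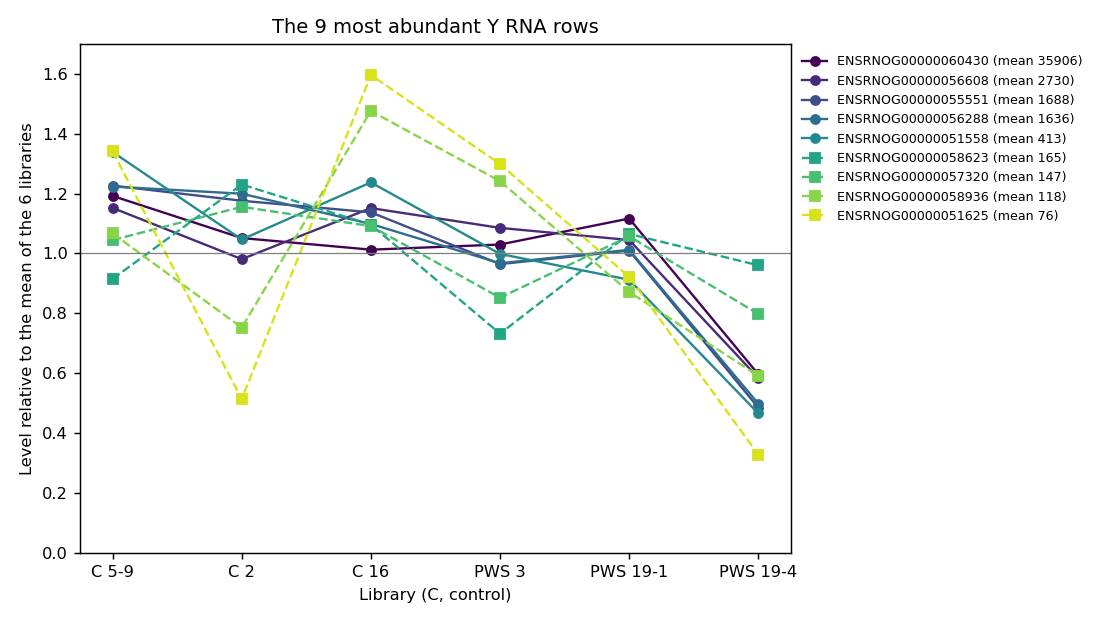
Level of the 9 most abundant Y RNA rows in each library relative to the mean of that row over the 6 libraries (vertical axis). Circles joined by solid lines are the 5 most abundant rows and squares joined by dashed lines the next 4, with lines drawn only to connect the points of a row. The solid lines run together and drop to between 0.466 and 0.596 in line 19-4.

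In 3 of the 12 tested Y RNA rows all PWS levels were below all control levels, as in 6.29% of all rows tested, although the sum of the type overlapped between groups. ENSRNOG00000055551 had 2071, 1986 and 1920 normalized reads in control lines 5-9, 2 and 16, against 1629, 1705 and 819 in PWS lines 3, 19-1 and 19-4. Its log2 fold change was -0.60 (SE 0.28, limma adjusted p = 0.831). ENSRNOG00000056288 had 2001, 1962 and 1797 in the control lines and 1582, 1656 and 815 in the PWS lines, in the same order, with a log2 fold change of -0.57 (SE 0.28, limma adjusted p = 0.835). The ratio of the first of these rows to the second stayed between 1.005 and 1.07 in all 6 libraries. Neither row lost a read in a second deposited table that leaves out reads counted for several genes. Whether their reads could align to both rows was not tested, so these rows may not be separate findings. ENSRNOG00000051558 had 554, 433 and 512 in control lines and 413, 377 and 192 in PWS lines. Its log2 fold change was -0.68 (SE 0.30, limma adjusted p = 0.831). Without line 19-4 the log2 fold changes of the 3 rows were -0.26, -0.24 and -0.33, and without lines 19-4 and 2, the shallow pair, they were -0.26, -0.23 and -0.43.

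The make-up of the Y RNA reads within each library does not depend on the scaling between libraries, and it was therefore compared as well. ENSRNOG00000055551 supplied 4.05%, 4.38% and 4.32% of the Y RNA reads in control lines 5-9, 2 and 16, and 3.69%, 3.61% and 3.24% in PWS lines 3, 19-1 and 19-4. The Wilson 95% intervals were 3.88% to 4.22% for line 5-9, the lowest control line, and 3.56% to 3.83% for line 3, the highest PWS line, and they did not overlap. The intervals of the nearest lines also stood apart for ENSRNOG00000056288, but they overlapped for ENSRNOG00000051558 (line 2 and line 3) and for ENSRNOG00000060430 (line 5-9 and line 3). They cover counting error only. For ENSRNOG00000056288 the share was 4.10% ± 0.211 for controls against 3.44% ± 0.188 in PWS lines, and for ENSRNOG00000051558 it was 1.06% ± 0.1004 and 0.832% ± 0.0914 (SD, 3 lines per group). The share of ENSRNOG00000060430 was 82.9% ± 0.946 for controls against 84.5% ± 0.594 for PWS lines (SD, 3 lines per group).

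For these 4 rows of the 12 (3 lower and 1 higher in PWS lines) the groups did not overlap, where the ratio to the summed Y RNA reads was lower without overlap in 2.82% of all rows tested and higher in 8.11%. The exact two-sided permutation p was 0.1, the smallest that 3 lines against 3 allow. Over the 58 shares compared in Y RNA, SRP RNA and 7SK rows the smallest Benjamini-Hochberg adjusted value was 0.644. With this smallest p no share could have passed a threshold of 0.1, so the adjusted value says nothing either way. The groups also did not overlap in 3 of the 26 SRP RNA shares, 1 lower and 2 higher in PWS lines, where the ratio of all tested rows to the SRP RNA sum gave 2.82% and 9.53%. Of the 20 7SK shares 0 were lower and 2 higher without overlap, where the ratio to the 7SK sum gave 4.15% and 6.62%, so the counts in SRP RNA and 7SK were near the background. Shares within a type sum to the whole, so the higher share of ENSRNOG00000060430 is not independent of the lower shares of the other rows. The comparison was chosen after the values were seen, and the rows come from the same libraries. Set against the most abundant Y RNA row, 3 of the other 11 rows had lower ratios in all PWS lines than in any control line, which held for 3.05% of all rows tested, and 0 had higher ratios, against 7.27% of all rows. The second row, ENSRNOG00000056608, made up 6.38% ± 0.619 of Y RNA reads for controls against 6.36% ± 0.341 for PWS lines (SD, 3 lines per group; exact permutation p = 1.0).

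**Figure D4:**
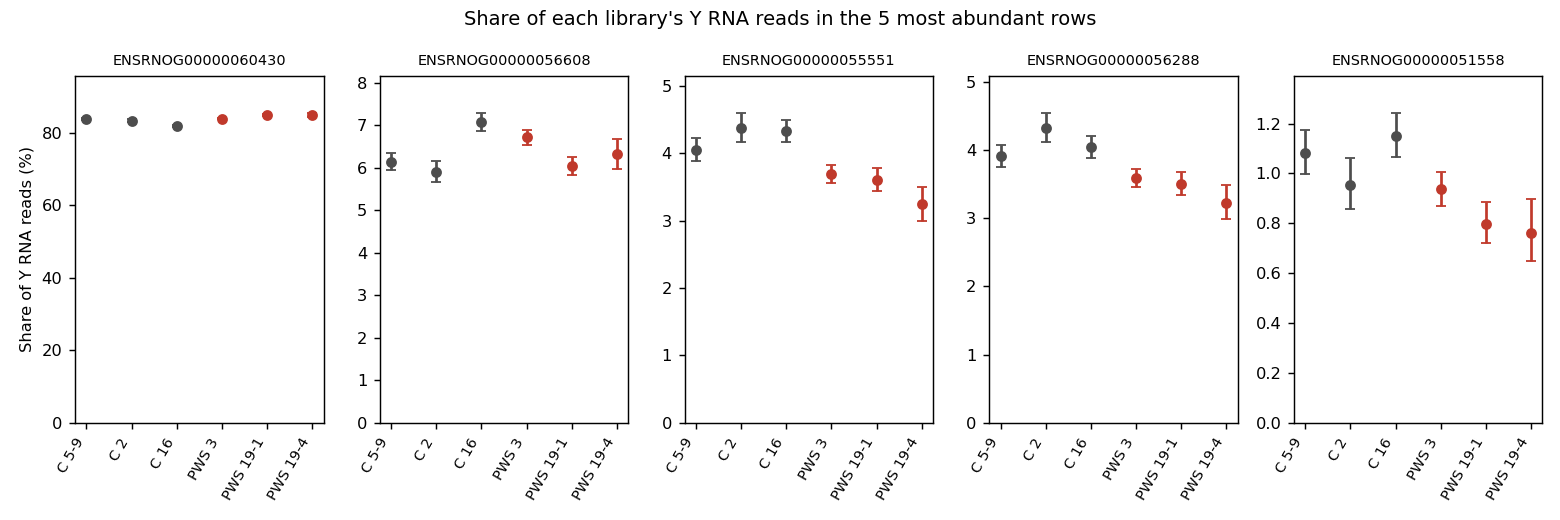
Share of the Y RNA reads of each library (vertical axes, percent, from 0) held by the 5 most abundant Y RNA rows. Points are libraries, grey for control (C) and red for PWS lines, and bars are Wilson 95% intervals for counting error. In the 3 panels on the right, all red points lie below all grey points, with ratios of the group means between 0.783 and 0.840.

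RNase MRP RNA, a single row (ENSRNOG00000057527), was close between genotypes. It had 8592, 11981 and 9304 normalized reads in control lines 5-9, 2 and 16, and 9113, 8754 and 11843 in PWS lines 3, 19-1 and 19-4. The group means were 9959 ± 1787 and 9903 ± 1689 (SD, 3 lines per group), a log2 fold change of -0.0066 ± 0.22 (SE). The spread ran across the groups. The shallow libraries, lines 2 and 19-4, were the 2 highest, with a mean of 11912, against 8941 over the 4 deeper ones. Line 19-4 stood at 0.988 of line 2, a single library against another, and the deeper PWS lines at 0.998 of the deeper control lines. This split was made after the values were seen, and the part of depth was not tested.

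Y RNA was low and RNase MRP RNA high in line 19-4, and the ratio between them stood apart in that library. The ratio of RNase MRP RNA to Y RNA reads was 0.469 in line 19-4. It lay between 0.168 and 0.264 in the other lines, and at 0.185 in the sister subclone 19-1. The distance between these subclones was thus larger than the distance between the control lines.

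Vault RNA was also a single row (ENSRNOG00000052373). It stood at 1943, 2679 and 3032 normalized reads in control lines 5-9, 2 and 16, and at 2426, 2072 and 3186 in PWS lines 3, 19-1 and 19-4. The highest and the lowest control line differed more than the group means, which were 2551 ± 556 and 2561 ± 570 (SD, 3 lines per group), and the log2 fold change was 0.0069 ± 0.25 (SE). Line 19-4 was the highest, followed by line 16, so the order of the lines differed from that of RNase MRP RNA.

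RNase P RNA was held mostly by Rpph1 (ENSRNOG00000054493), the gene of its catalytic RNA. Rpph1 took 75.7% to 86.6% of the RNase P RNA reads of a library. The RefSeq table gives this symbol the synonym Rmrp and the biotype of RNase MRP RNA, so the name of the row is less certain than that of the others. It had 79.8, 169 and 126 normalized reads in control lines 5-9, 2 and 16 and 122, 84.0 and 136 in PWS lines 3, 19-1 and 19-4. Lines 2 and 19-4 were the highest here as well. The log2 fold change was -0.09 (SE 0.33, limma adjusted p = 0.973). Of the 36 rows named RNaseP_nuc only 8 had reads, and their sum was 25.2 to 32.1 normalized reads in a library, from 20 to 54 reads.

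SRP RNA was spread over many rows, in contrast to Y RNA. Its sum was 2968, 2732 and 4021 normalized reads in control lines 5-9, 2 and 16 and 3046, 2454 and 2645 in PWS lines 3, 19-1 and 19-4. Control line 16 stood above all other lines. The group means were 3240 ± 686 and 2715 ± 302 (SD, 3 lines per group), the log2 fold change was -0.24 ± 0.23 (SE), and without line 16 it was -0.07. Line 16 was the highest library in 23 of the 26 tested SRP RNA rows, whereas it was the highest in 14.3% of all rows tested. The fold change was below 0 in 24 of the 26 rows, with a median of -0.26, but the rows share a name and the same libraries and do not count as separate evidence.

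Rn7sl1 (ENSRNOG00000061096), the named SRP RNA gene, was the most abundant of these rows. It had 373, 320 and 416 normalized reads in control lines 5-9, 2 and 16 and 309, 282 and 268 in PWS lines 3, 19-1 and 19-4. All PWS lines were below all control lines, and the log2 fold change was -0.36 (SE 0.26, limma adjusted p = 0.876). ENSRNOG00000058083 followed with 299 to 421 in control lines and 274 to 330 in PWS lines. ENSRNOG00000059449 had 254 to 380 in control lines and 243 to 304 in PWS lines, and ENSRNOG00000053902 had 162 to 245 and 160 to 185. In these 3 rows the groups overlapped, and the limma adjusted p was 0.909, 0.918 and 0.958. The rows after the first 3 had means from 184 down to 5.99.

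SRP RNA was the only type whose read counts changed with the way shared reads were counted. In the table used here a read assigned to several genes was added to each of them, and in the second deposited table it was left out. The first 3 SRP RNA rows kept 38.5%, 42.0% and 43.4% of their reads in the second table, and together they held 76.2% of the 4840 SRP RNA reads that were lost. Of the other tested rows 8 lost no read, and the rest kept 58.0% or more. Over a library 69.0% to 78.0% of the SRP RNA reads remained. Levels of these 3 rows therefore include reads that also counted for another gene, which was not identified, and the sum over SRP RNA rows may count some reads more than once. With shared reads left out, the log2 fold change of the sum was -0.26. That of Rn7sl1 was then -0.25, that of ENSRNOG00000058083 went from -0.22 to -0.34 and that of ENSRNOG00000059449 from -0.21 to -0.08, and limma called none of the 3. All reads of 7SK, Y RNA, vault RNA, RNase P RNA and RNase MRP RNA were kept in the second table. Whether the kept reads could also align to other copies was not tested.

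**Figure D5:**
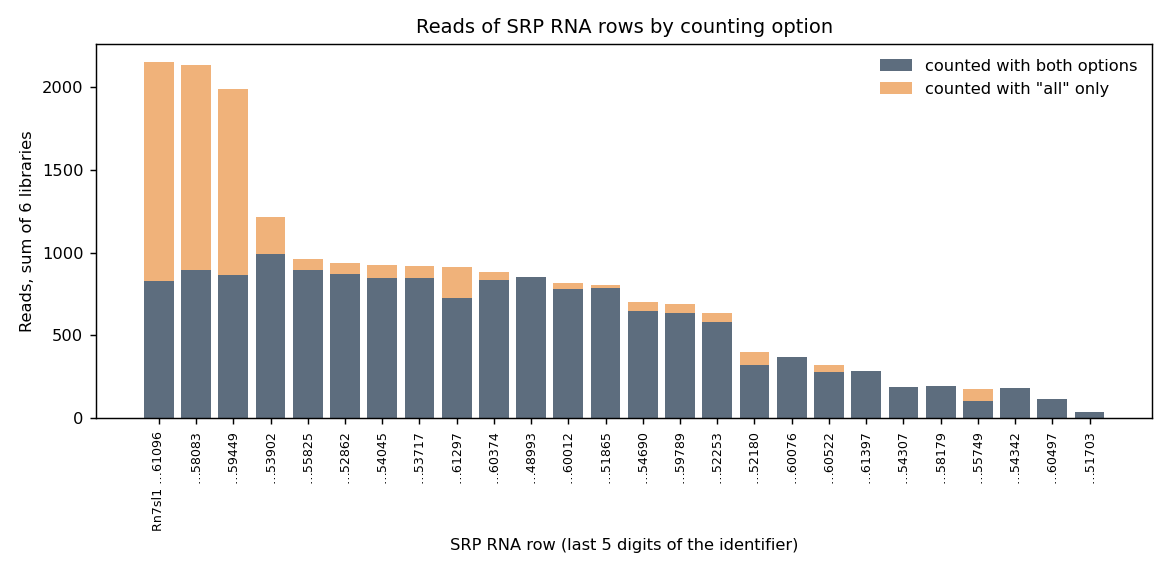
Reads of the 26 tested SRP RNA rows, summed over the 6 libraries (vertical axis, from 0) and split by counting option. The dark part of a bar was counted in both deposited tables and the light part only where a read was added to every gene it was assigned to. Rn7sl1 and the 2 rows after it lost more than all other rows together.

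7SK had few reads for its number of annotated copies. Of its 424 rows 338 had no read in any library, 66 had reads but fell under the filter, and 20 were tested. The sum was 287, 280 and 253 normalized reads in control lines 5-9, 2 and 16 and 272, 262 and 206 in PWS lines 3, 19-1 and 19-4. The groups overlapped, with means of 273 ± 17.7 and 246 ± 35.7 (SD, 3 lines per group), and the log2 fold change was -0.16 ± 0.26 (SE). Line 19-4 was again the lowest, and with the 4 deeper libraries alone the log2 fold change was -0.01. Both the SD over the 6 libraries, at 11.2% of the mean, and the ratio of the highest to the lowest library, at 1.39, were smaller than in Y RNA, where they were 21.1% and 2.03.

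The most abundant 7SK row, ENSRNOG00000058555, had 55.2, 78.4 and 56.3 normalized reads in control lines 5-9, 2 and 16 and 53.5, 44.1 and 27.7 in PWS lines 3, 19-1 and 19-4. No PWS line reached the lowest control line. The difference was small in line 3, and the log2 fold change was -0.62 (SE 0.34, limma adjusted p = 0.855). Without line 19-4 it was -0.36, and with the 4 deeper libraries alone -0.19. This row and the 2 after it held 33.9% of the 7SK reads, and the other 17 tested rows had means of 5.06 to 9.22. Fold changes of 7SK rows ran from -0.76 to 1.10 with a median of 0.06, with 9 rows below 0 and 11 above.

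Genes whose proteins bind these RNAs or transcribe them were examined through fragments of their mRNAs. Of 55 such genes 15 were tested, and limma called 0 of them lower and 0 higher, with 0 at an unadjusted p under 0.05 by limma, edgeR or DESeq2. Over all rows limma called 1.28% and listed 5.96% at that p, so 0 of 15 is near the background. Their median log2 fold change was 0.12. Hexim1, which inhibits P-TEFb together with 7SK, averaged 18.3 ± 4.70 normalized reads for the controls and 20.6 ± 7.07 for the PWS group (SD, 3 lines per group). Ccnt2, a cyclin of P-TEFb, had 12.1 ± 2.19 and 17.4 ± 4.50. Srpra, a subunit of the SRP receptor, had 11.0 ± 6.23 and 9.40 ± 0.146.

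For the RNase P and RNase MRP subunits the values were 6.79 ± 3.75 and 9.63 ± 2.77 for Pop7, and 4.79 ± 1.65 and 10.7 ± 5.57 for Rpp30. Rpp30 had a log2 fold change of 0.95 (SE 0.49, limma adjusted p = 0.835). Changes of like size stood in both directions in the SRP proteins Srp9, at -0.96 (SE 0.66, limma adjusted p = 0.871), and Srp68, at 0.89 (SE 0.51, limma adjusted p = 0.860), which were singled out after their values were seen. Ptbp1, an RNA-binding protein reported in Y RNA complexes, had 14.6 ± 4.42 and 15.7 ± 2.50. Srsf2, a splicing factor that binds vault RNA, had 16.9 ± 6.66 and 13.2 ± 4.36, and Nsun2, which methylates vault RNA, had 14.2 ± 5.61 and 13.5 ± 5.07 (SD, 3 lines per group). With means under 20 normalized reads over the 6 libraries, these fragments rest on few reads, and they do not measure the level of the full mRNA.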

How the data were processed

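Small RNA libraries of 3 control and 3 PWS lines were compared. Per the labels and the methods of the study, the authors collapsed duplicates with UMI-tools 1.0.0, trimmed with Cutadapt 1.18, aligned with Bowtie2 2.3.4.2 to Rnor_6.0 with a custom annotation, and counted with HTSeq 0.11.2. The submitters' processing notes also name featureCounts. The deposited values are a signal in normalized reads, the counts divided by a DESeq2 size factor per library. Dividing each column by its smallest value above 0 gave whole numbers throughout (100% within 0.001), taken as the reads. The authors also deposited their own mean, fold change and p-value columns, which were not used.

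Rows were tested by limma-trend (limma 3.58.1, R 4.3.3) on log2(normalized reads + 1) at a mean of at least 5 normalized reads, with Benjamini-Hochberg adjustment over all rows and a threshold of 0.1. Each type was summed and added to the table as 1 row. Fold changes are on this scale, which understates changes of low rows. Named rows were the type sums, the most abundant row per type, the 12 highest rows, called rows, and rows that kept under 50% of their reads in the second table, and for partner genes the 8 highest. Members and lists were chosen with earlier results of these data known. Alternatives were pseudocounts of 0.5 and 5, other filters, TMM and scaling to total reads, edgeR 4.0.16, DESeq2 1.42.0, the second table, the replicate block, subclones averaged and each line left out. The limma, edgeR and DESeq2 fits were tested on simulated counts with known changes.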

Additional observations from a re-analysis of the deposited data

How the results depend on the processing

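Under all 19 alternatives limma, edgeR or DESeq2 called 0 of the 6 type sums, 0 member rows and 0 partner genes, and the sums of 7SK, SRP RNA and Y RNA kept their sign. The 4 deeper libraries alone were chosen after seeing the data. The signs of the other sums turned where values were close to 0. The log2 fold change of vault RNA was -0.11 with the 4 deeper libraries. That of RNase P RNA was 0.037 with scaling to total reads and 0.027 with the 4 deeper libraries, and there Rpph1 was at 0.00077 and 0.014 (ENSRNOG00000054493). RNase MRP RNA (ENSRNOG00000057527) was at 0.089 with scaling to total reads, which moved the median of all rows from 0.0048 to 0.10.

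When 1 line was left out, log2 fold changes ranged from -0.18 to 0.15 for vault RNA (ENSRNOG00000052373), -0.29 to 0.15 for RNase P RNA, -0.38 to 0.15 for Rpph1 (ENSRNOG00000054493), -0.14 to 0.13 for RNase MRP RNA (ENSRNOG00000057527) and -0.23 to 0.064 for ENSRNOG00000053902. The range was -0.49 to -0.04 for Y RNA, -0.35 to -0.07 for SRP RNA and -0.23 to -0.03 for 7SK. With the replicate block the log2 fold change of Y RNA was -0.32 with a limma adjusted p of 0.828, and 0 member rows were called. Lines of the same number correlated at 0.414, 0.218 and -0.0574 across 1087 rows after removal of group means. Lines of different number were not compared, so these values do not show whether the numbers pair the lines. The number of lines, 3 per group, limits the precision, and the smallest difference that could be detected was not measured.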
